A study of Mus musculus with 12 samples.

Results

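miR-21 (mmu-miR-21 on the array) gave the brightest miRNA signal in a microarray study of fat cell formation and WNT signalling in 3T3-L1 cells. This established line of mouse fibroblasts turns into fat cells under a hormone cocktail. miR-21 was chosen by its signal, the highest of 611 mouse miRNAs on the array, and it is read by 2 of 1759 mouse probes and 20 of 12220 mouse spots per array. Its level, its place among the miRNAs and its share of the signal within a group are therefore descriptions, while the differences between groups were tested. The 12 samples fall into 4 groups of 3. Lithium plus MDI cells received lithium chloride at 25 mM and then the MDI cocktail of 3-isobutyl-1-methylxanthine, dexamethasone and insulin. MDI cells had the cocktail alone for 3 days after confluence, insulin for 2 days and plain serum medium for 2 days, ending on day 7. Lithium cells had lithium chloride, also at 25 mM, without the cocktail. Preadipocytes received neither agent. All groups share 1 cell line and serum medium. The labels give the day schedule of the MDI group only, so a difference from another group cannot be told apart from a difference in time in culture. They do not say whether replicates came from separate cultures, so each p-value reflects only how far these samples scatter, and that scatter may be technical.

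miRNAs are short RNAs that guide an Argonaute protein to matching sites in messenger RNAs, mostly through the seed near their 5′ end, and lower the output of those messages. miR-21 is abundant in fibroblasts and many tumours, where it is known to repress growth-restraining genes such as Pdcd4 and the Sprouty genes, and its transcription is known to be raised by AP-1 and STAT3. In human adipose-derived stem cells it has been reported to favour fat cell formation by repressing the TGF-beta receptor TGFBR2. Lithium inhibits GSK3 and so stabilises beta-catenin, the effector of canonical WNT signalling, which holds back fat cell formation.

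The mature sequences of the miR-21 family are shown because they set which RNAs carry the same seed, written in capitals (bases 2 to 8). Sequences and positions are those of RefSeq for the mouse build GRCm38.p6, in which the array's miR-21 is named miR-21a-5p and its miR-21* is miR-21a-3p.
mmu-miR-21a-5p: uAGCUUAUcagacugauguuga
mmu-miR-21c: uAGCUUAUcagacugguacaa
mmu-miR-21b: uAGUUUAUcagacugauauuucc
mmu-miR-21a-3p: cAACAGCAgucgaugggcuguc
miR-21a-5p lies on the minus strand at chr11:86584120-86584141 and miR-21a-3p on the same strand at chr11:86584082-86584103. miR-21c, at chr8:128278188-128278208 on the minus strand, has the same seed and the same base at 16 of 21 positions counted from the 5′ end. miR-21b, at chr3:29636768-29636790 on the plus strand, matches at 18 of 22 positions but has another seed. Of the 1738 mature miRNAs in the RefSeq table, 2 carry the seed of miR-21 (miR-21a-5p and miR-21c). miR-590-5p, which is on the array, is also known to share it. The hairpin of miR-21 is shown because both of its arms are on the array. Capitals mark the guide arm (bases 18 to 39) and the passenger arm (bases 56 to 77).
Mir21a hairpin: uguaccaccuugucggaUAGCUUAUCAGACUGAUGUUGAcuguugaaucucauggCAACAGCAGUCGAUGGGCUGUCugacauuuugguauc
The hairpin spans chr11:86584067-86584158, minus strand, inside the span of Vmp1, a vacuole membrane protein gene transcribed from the same strand. It lies 209 bases before the end of that gene. Exon and intron positions were not used here.

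Each array held 13715 spots, of which 715 were controls and 0 were saturated, and 17.9% to 24.2% of its mouse spots were well above background. Across the arrays, 108 miRNAs were detected on all 12, 406 were detected on none, and 157 were tested. Over the tested miRNAs, 6 of the 12 arrays correlated better on average with another group than with their own. Preadipocytes 3, lithium 1 and lithium plus MDI 3, which had the lowest mean correlations with their own groups, are called here the arrays that stood apart, and were left out together as an alternative. That choice can narrow the scatter within groups that the test uses. Preadipocytes 1 to 3 and MDI 1 shared 1 slide and scan, and the other 8 arrays shared another. No slide held both lithium and preadipocyte arrays, so that comparison has no value within a slide.

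miR-21 ranked first of 611 mouse miRNAs on all 12 arrays, both by its brightest probe and by the scanner software's total gene signal. The next brightest was miR-199a-3p on 6 arrays, miR-125b-5p on 5 and miR-23a on 1. Brightness depends on the probe as well as on the RNA, so this is an order of signal and not of molecules. All 10 spots of each miR-21 probe were well above background on every array, and the brightest single spot reached 2.49% of the saturation value. Local background medians lay between 16.2 and 21.2 intensity units. Spots of the brighter probe varied by 2.85% to 10.4% within an array (coefficient of variation), and those of the dimmer probe by 1.01% to 2.75%.

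The brighter probe, A_54_P1307, had unscaled mean signals of 10795, 12703 and 12129.9 in lithium plus MDI cells, 8818, 11525 and 9851 in MDI cells, 8316, 5298 and 7290.4 in lithium cells, and 10925, 18271 and 13362 in preadipocytes. Lithium cells were the dimmest group before scaling, with no value above 8316, and preadipocytes held the brightest array. After scaling to the 75th percentile of the 181 mouse probes detected on all arrays, the log2 levels were 5.35, 5.00 and 4.67 in lithium plus MDI cells, 5.06, 4.91 and 4.85 in MDI cells, 4.72, 3.69 and 4.14 in lithium cells, and 4.44, 4.99 and 4.10 in preadipocytes. Group means on that scale were 5.01 ± 0.34 in lithium plus MDI cells, 4.94 ± 0.11 in MDI cells, 4.18 ± 0.51 in lithium cells and 4.51 ± 0.45 in preadipocytes (SD, n = 3 each). By level the order was lithium plus MDI, MDI, preadipocytes, lithium. Lithium plus MDI and MDI cells differed by less than the SD of the lithium plus MDI arrays, preadipocytes and lithium cells by less than the SD of either, and MDI cells and preadipocytes by less than the SD of the preadipocytes though by more than that of the MDI arrays. The groups overlapped in each of the 5 pairs compared here, whereas MDI and lithium cells, a pair not compared, did not overlap. How many tested miRNAs did so in that pair was not computed, so no weight is put on it. By comparison, 26.8% of tested miRNAs did not overlap between MDI cells and preadipocytes, 29.9% between lithium cells and preadipocytes, 33.8% between lithium plus MDI and lithium cells, 12.1% between lithium plus MDI and MDI cells, and 17.8% between lithium plus MDI cells and preadipocytes.

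**Figure D1:**
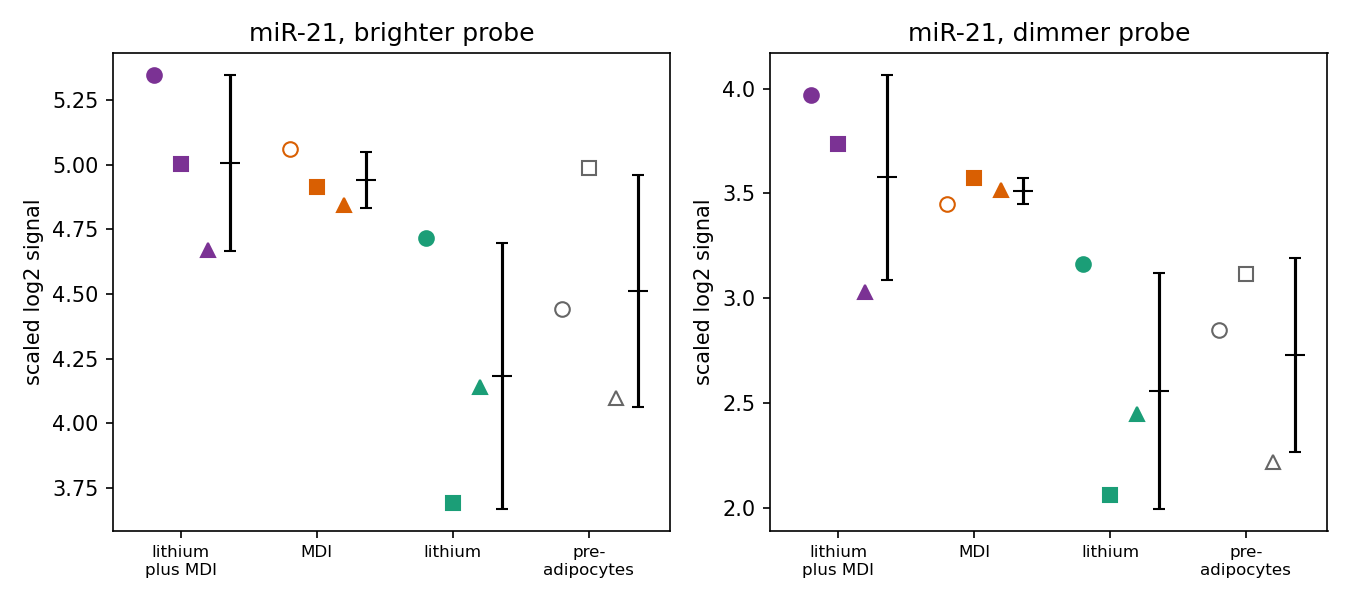
Log2 signal of both miR-21 probes, scaled to the 75th percentile of each array (y axis), by treatment group (x axis). Points are single arrays, with open symbols for the slide that held the preadipocytes and bars for the mean ± SD. For the brighter probe the MDI and lithium arrays, a pair for which no share over all miRNAs was computed, do not overlap and every other pair does. For the dimmer one the 3 MDI arrays lie above the 3 preadipocyte arrays, a separation that 26.8% of tested miRNAs showed by their brightest probes.

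The comparison of cells given MDI with cells not given it, averaged over the presence and absence of lithium, asks how the induction cocktail relates to miR-21. By the brighter probe, miR-21 was 0.63 higher on the log2 scale with MDI (95% confidence interval 0.14 to 1.11, 1.54-fold). It did not pass adjustment over the 157 miRNAs (limma adjusted p = 0.111). The background was 3.18% of tested miRNAs called, 5 in number, and the median difference over all tested was 0.25. Counted from the most positive difference to the most negative, miR-21 stood 27th of 157. Without lithium 1 the difference was 0.76 (limma adjusted p = 0.0352), and without lithium plus MDI 3 it was 0.71 (limma adjusted p = 0.0381), so leaving out either array brought the call past the threshold. The number of miRNAs called also rose, to 19 of 157 without lithium 1 and 42 of 157 without lithium plus MDI 3. Over all single arrays left out, limma's adjusted p for miR-21 ran from 0.0352 to 0.266. These are RNA extracts of whole cultures, in which fewer cells carrying a miRNA and less of it per cell cannot be told apart.

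The dimmer probe, A_54_P1308, fell on the other side of the threshold in the same comparison. Its log2 levels were 3.97, 3.74 and 3.03 in lithium plus MDI cells, 3.45, 3.57 and 3.51 in MDI cells, 3.17, 2.06 and 2.45 in lithium cells, and 2.85, 3.12 and 2.22 in preadipocytes. All MDI arrays lay above all preadipocyte arrays, a separation that 26.8% of tested miRNAs showed by their brightest probes, while lithium plus MDI 3 lay below lithium 1. By this probe miR-21 rose with MDI by 0.90 on average (95% confidence interval 0.37 to 1.43, limma adjusted p = 0.0491). In that fit 9 of 157 miRNAs were called, against 5 with the brighter probe. Only the values of miR-21 were exchanged, so the count of calls moved with this 1 miRNA. The ratio of the brighter to the dimmer probe was 2.60, 2.40 and 3.12 in lithium plus MDI cells, 3.05, 2.53 and 2.51 in MDI cells, 2.93, 3.10 and 3.24 in lithium cells, and 3.02, 3.66 and 3.68 in preadipocytes. The log2 ratio was lower with MDI by an average difference of -0.28 (2-sided exact permutation test within lithium strata, p = 0.03, a comparison chosen after the values were seen). Leaving out arrays moved that p between 0.01 and 0.05. The test did not take slide into account. The ratio of 3.05 belongs to the 1 MDI array that shared a slide with the preadipocytes, and it lay within their range, while both MDI arrays on the other slide were lower. Without lithium, slide and MDI were therefore not separated for this ratio. The probe sequences were not used here, and what the probes bind beyond miR-21 was not tested.

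Pair by pair, the MDI cells differed from preadipocytes by 0.43 for the brighter probe (95% confidence interval -0.26 to 1.12, limma adjusted p = 0.442). In that comparison 3.18% of miRNAs were called. The lithium plus MDI cells differed from lithium cells by 0.82 (95% confidence interval 0.13 to 1.51, limma adjusted p = 0.123), where the median of all tested miRNAs was 0.39. No miRNA passed limma's adjusted test there (0% called, with 48 at an unadjusted p under 0.05). Without lithium 1 this difference was 1.09 (limma adjusted p = 0.0406), and 32 of 157 miRNAs were called. The arrays of both groups lie on 1 slide. The interaction, which asks whether the MDI difference depends on lithium, was 0.39 (95% confidence interval -0.58 to 1.37, limma adjusted p = 0.688), with 0% of miRNAs called and 35 at an unadjusted p under 0.05. The interval allows a dependence on lithium in either direction, and the call turned on the processing. The interaction was 1.26 without scaling (limma adjusted p = 0.0159) and 1.03 without the 3 arrays that stood apart (limma adjusted p = 0.0355). In those fits 61 and 69 of 157 miRNAs were called for the interaction, so the change in calls was not particular to miR-21.

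**Figure D2:**
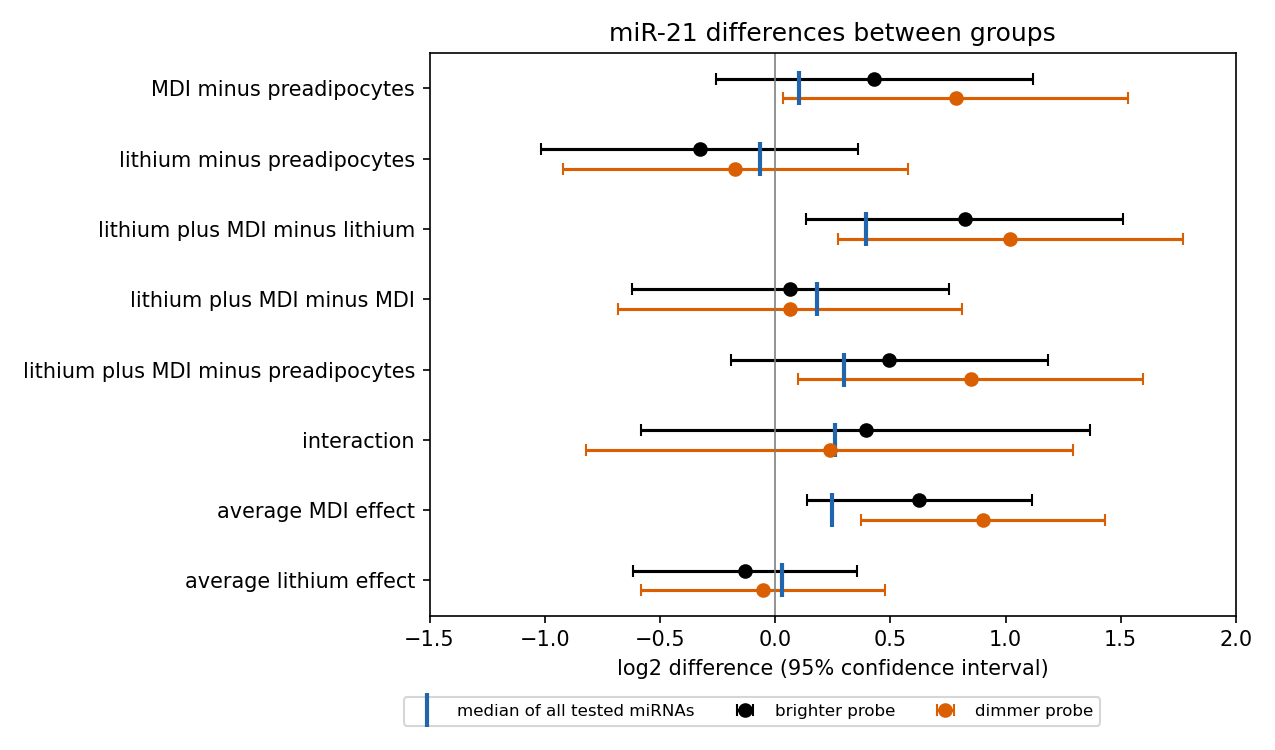
Log2 differences in miR-21 between groups (x axis) with 95% confidence intervals from limma, for the brighter and the dimmer probe, in each comparison (y axis). Blue ticks give the median difference over all 157 tested miRNAs. The intervals, which are not adjusted over the 157 miRNAs, lie above 0 for both probes in the average MDI effect. Those of the average lithium effect span 0. For the average MDI effect the brighter probe did not pass adjustment (limma adjusted p = 0.111), and its interval holds the median over all tested. The dimmer probe passed (limma adjusted p = 0.0491).

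Lithium was not accompanied by a change in miR-21 that passed the test. Averaged over the presence and absence of MDI, the brighter probe was -0.13 with lithium (95% confidence interval -0.62 to 0.36, limma adjusted p = 0.886), with 0% of miRNAs called and 20 at an unadjusted p under 0.05. Lithium cells differed from preadipocytes by -0.33 (95% confidence interval -1.02 to 0.36, limma adjusted p = 0.553), where 6.37% of miRNAs were called. Without the 3 arrays that stood apart this difference was -0.80 (limma adjusted p = 0.0266), and 83 of 157 miRNAs were called. Lithium plus MDI cells differed from MDI cells by 0.07 (95% confidence interval -0.62 to 0.75, limma adjusted p = 0.996), with 0% called and 6 at an unadjusted p under 0.05. Lithium plus MDI cells differed from preadipocytes by 0.50 (95% confidence interval -0.19 to 1.18, limma adjusted p = 0.440), with 1.27% called. No slide held both of these groups, and with slide as a block the difference was 0.68 (limma adjusted p = 0.706).

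miR-21 made up a large part of all miRNA signal. Its share of the summed total gene signal of 611 mouse miRNAs was 21.7%, 18.5% and 16.4% in lithium plus MDI cells, 21.1%, 19.6% and 20.1% in MDI cells, 17.0%, 10.7% and 13.4% in lithium cells, and 14.2%, 17.8% and 11.7% in preadipocytes. All MDI arrays lay above all preadipocyte arrays, and lithium plus MDI 3 lay below lithium 1. By scaled log2 level 26.8% of tested miRNAs did not overlap between MDI cells and preadipocytes, and the shares of other miRNAs were not computed. The share averaged 18.9% ± 2.69 in lithium plus MDI cells, 20.3% ± 0.797 in MDI cells, 13.7% ± 3.20 in lithium cells and 14.6% ± 3.03 in preadipocytes (SD, n = 3 each). With MDI the share was 5.43 percentage points higher on average (2-sided exact permutation test within lithium strata, p = 0.01, adjusted p = 0.07 over 7 share comparisons, smallest p allowed 0.005). Without lithium 1 it was 6.26 points higher (exact permutation adjusted p = 0.035). MDI cells exceeded preadipocytes by 5.70 points and lithium plus MDI cells exceeded lithium cells by 5.15 points. Their exact permutation p-values were 0.1 and 0.2, and 3 arrays against 3 cannot go below 0.1. Lithium moved the share by an average of -1.15 points (exact permutation p = 0.435).

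The share is a ratio, and both of its parts differed between groups before scaling. miR-21 itself had a total gene signal of 9986, 12130.2 and 10794 in lithium plus MDI cells, 7771, 10395 and 9009.5 in MDI cells, 7479.8, 4829 and 6112 in lithium cells, and 9691, 15625 and 11634 in preadipocytes. The other miRNAs together had 36011, 53504 and 55168 in lithium plus MDI cells, 28974, 42682 and 35809 in MDI cells, 36417, 40451 and 39471 in lithium cells, and 58523, 72269 and 87446 in preadipocytes. The summed signal of the other miRNAs was higher on every preadipocyte array than on any other array. In MDI cells the higher share therefore went with a lower signal of the other miRNAs, and miR-21's own unscaled signal averaged 9058 ± 1313 there, against 12317 ± 3026 in preadipocytes (SD, n = 3 each). In lithium plus MDI cells it averaged 10970 ± 1083, against 6140 ± 1326 in lithium cells (SD, n = 3 each), a pair that overlapped once scaled.

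**Figure D3:**
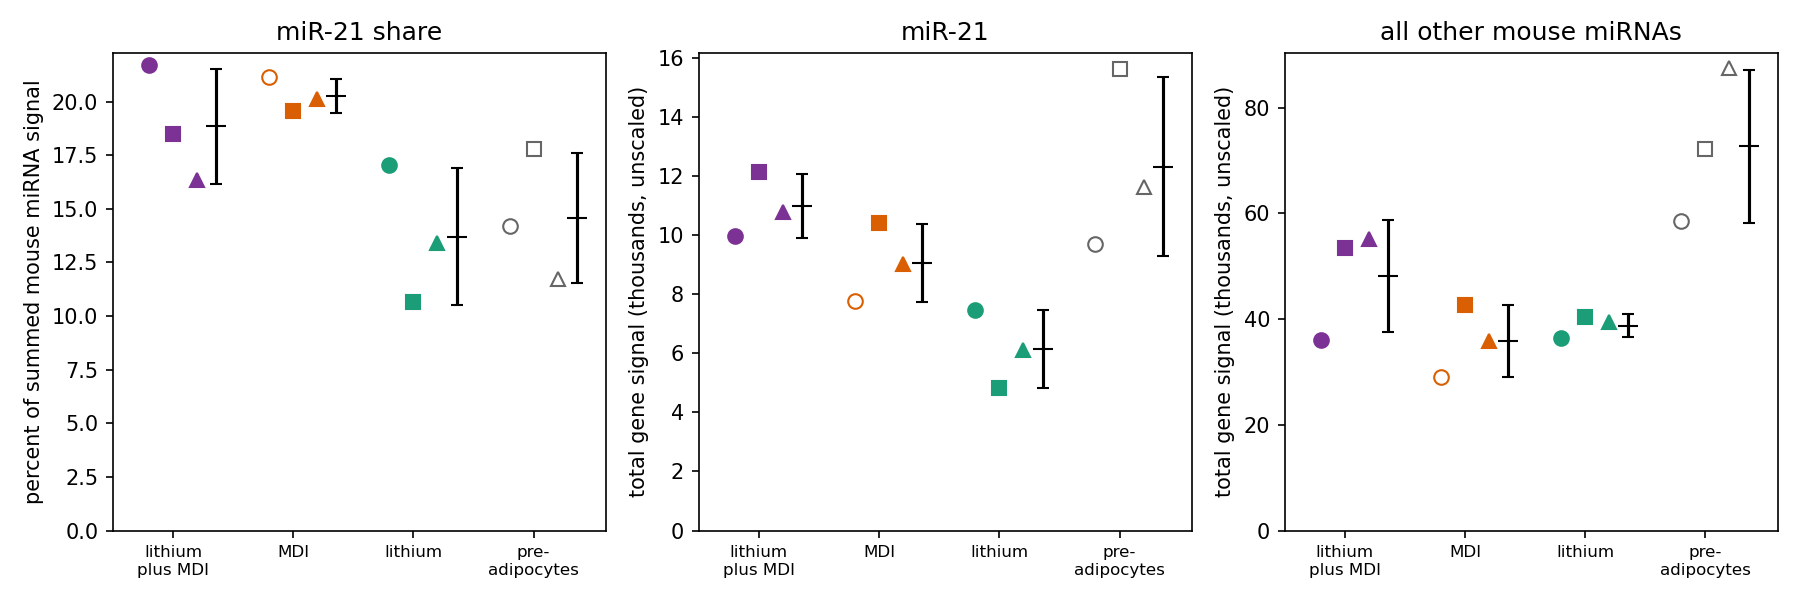
Share of miR-21 in the summed signal of 611 mouse miRNAs (y axis, percent) by treatment group (x axis). Points are single arrays, with open symbols for the slide that held the preadipocytes and bars for the mean ± SD. The MDI arrays sit between 19.6% and 21.1%, above the preadipocyte arrays at 11.7% to 17.8%. Shares of other miRNAs were not computed.

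The direction of some miR-21 differences turned with the scaling, which also moved the median of all miRNAs. Without scaling, MDI cells lay below preadipocytes by a log2 difference of -0.47 (limma adjusted p = 0.147), against 0.43 with scaling, and lithium cells differed from preadipocytes by -1.02 (limma adjusted p = 0.00891). In that lithium comparison 74 of 157 miRNAs were called. The average MDI difference was positive under all 25 alternatives, from 0.14 to 0.90, and passed the adjusted test in 4 of them. With slide as a block it was 0.69 (limma adjusted p = 0.166), and lithium minus preadipocytes, linked across slides through the MDI arrays, was -0.15 (limma adjusted p = 0.946). Within the slide that held all 6 arrays, lithium plus MDI cells exceeded lithium cells by 0.82 (limma adjusted p = 0.108). There, lithium plus MDI cells differed from the 2 MDI arrays of that slide by 0.13 (limma adjusted p = 0.958). Within the other slide, the 1 MDI array differed from the preadipocytes by 0.55 (limma adjusted p = 0.650), a fit that assumes this lone array varies like the preadipocytes.

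**Figure D4:**
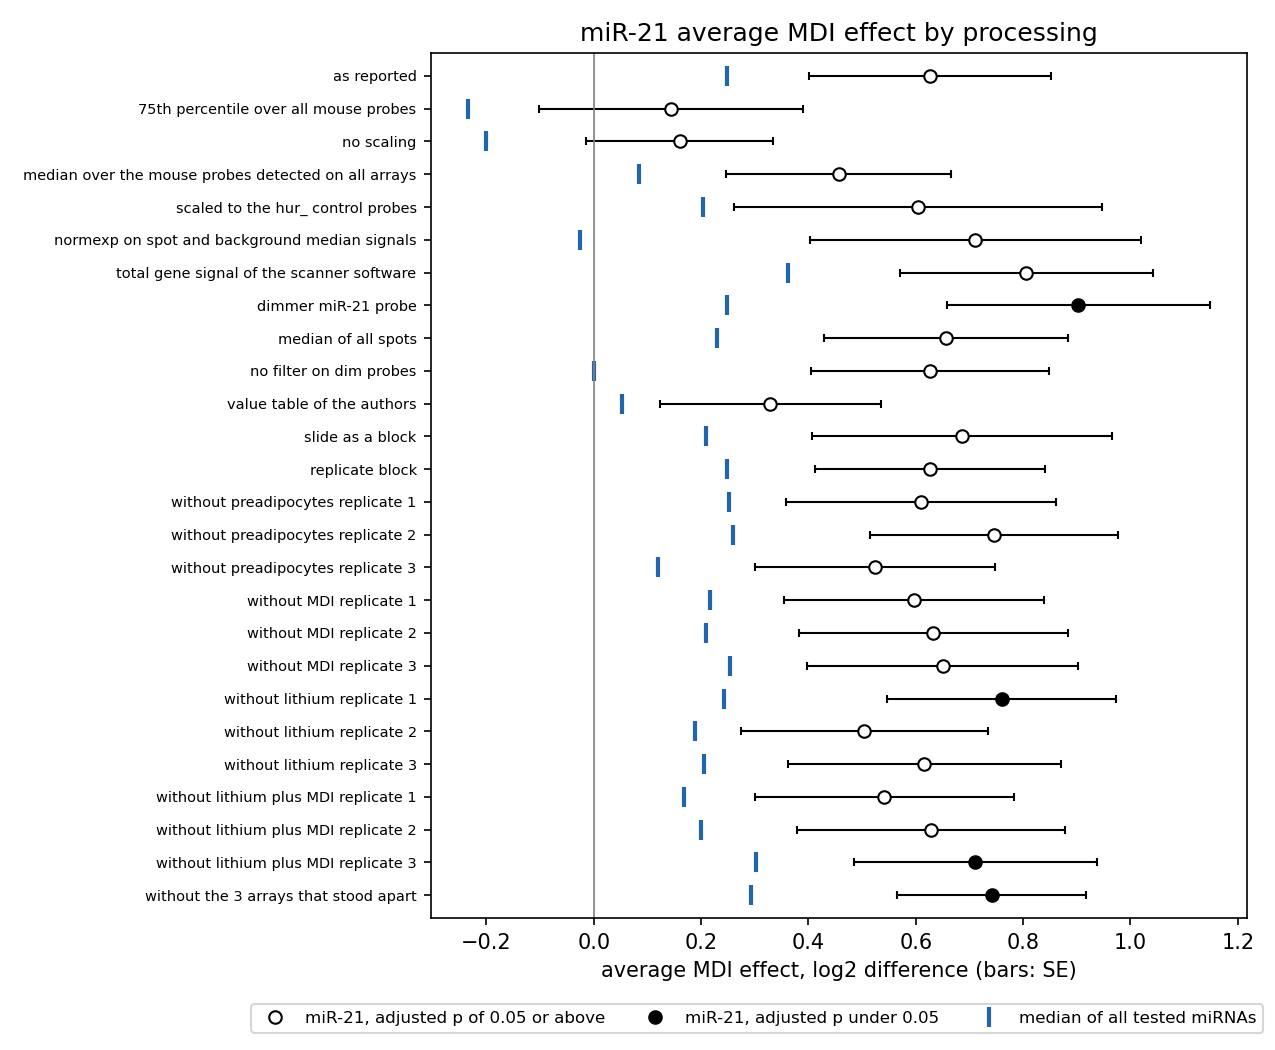
Average MDI effect on miR-21 as a log2 difference with its SE (x axis) under each way of processing (y axis). Filled points passed an adjusted p of 0.05, and blue ticks give the median over all tested miRNAs. All estimates lie above 0, from 0.14 to 0.90.

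The passenger arm of the same hairpin was not measurable. Its 4 probes had 0 of 60 spots each well above background, mean signals ran from -6.01 to 6.16, and it was detected on no array and not tested. miR-590-5p was also detected on no array. Of the other bright miRNAs, miR-125b-5p, abundant in mesenchymal cells, had mean log2 levels of 3.13 in lithium plus MDI cells, 3.24 in MDI cells, 2.64 in lithium cells and 3.21 in preadipocytes. Its average MDI difference was 0.27 (limma adjusted p = 0.388). miR-199a-3p, another mesenchymal miRNA, differed by 0.04 (limma adjusted p = 0.910), let-7f, of the let-7 family, by 0.19 (limma adjusted p = 0.497), and miR-23a by 0.46 (limma adjusted p = 0.191). None of these next brightest miRNAs passed the test with MDI.

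miRNAs known to act with or beside miR-21 were read from lists, beside the average MDI difference over all 157 tested, of which 102 were higher and 3.18% were called, with a median of 0.25. Of 10 miRNAs that go with growth, such as the miR-17-92 cluster, 8 were tested, 7 were higher with MDI, 1 was called higher and 0 lower, with a median of 0.69. The 1 called was miR-18a, of that cluster. It was detected on 7 arrays and lay at the signal floor on 5, all 3 preadipocyte arrays among them, so it entered the test through the groups given MDI, its fitted difference depends on the floor, and no size is given for it. miR-20a was 0.91 higher and miR-19b 0.76 higher, and neither passed (limma adjusted p = 0.0856 each). Of 13 miRNAs reported to hold back fat cell formation, 10 were tested and 7 were higher with MDI, with a median of 0.42. By limma's adjusted test 1 rose and 0 fell. The 1 that rose was miR-27a, which represses Pparg, at 0.78 (limma adjusted p = 0.0291). Of 16 miRNAs reported to promote fat cell formation, 12 were tested and 4 were higher, with a median of -0.27. By the same test 0 rose and 1 fell. The 1 that fell was miR-210, a hypoxia-induced miRNA, with a difference of -1.27 (limma adjusted p = 0.0452). miR-143, reported to promote fat cell formation, differed by 0.77 and did not pass (limma adjusted p = 0.0551). miR-21 is itself on the growth and promoting lists, whose medians without it were 0.76 and -0.37.

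The list of 7 miRNAs driven by AP-1, STAT3 or NF-kB, the factors known to act on miR-21, was tested in full. With MDI 3 were higher and 0 rose or fell by limma's adjusted test, with a median of -0.07. In lithium cells against preadipocytes 1 of the 7 was higher, with a median of -0.85, against a median of -0.07 over all tested, of which 6.37% were called. There miR-155, an NF-kB and AP-1 target, was -1.42 and miR-181b, a STAT3 target, was -1.54, and both differences passed the test (limma adjusted p = 0.0382 and 0.0191). In lithium plus MDI cells against MDI cells, the other lithium comparison, 6 of the 7 were higher and 0 rose or fell by that test. Their median there was 0.13, against 0.18 over all tested. In MDI cells against preadipocytes, where 3.18% of miRNAs were called, miR-181b also fell, with a difference of -1.76 (limma adjusted p = 0.0263). Of 6 miRNAs raised in fibrosis, all tested, 3 were higher with MDI, with a median of -0.01. Of 7 lowered in fibrosis, 3 were tested and all 3 were higher, with a median of 0.40. With MDI none of these fibrosis miRNAs passed limma's adjusted test. In lithium cells against preadipocytes 2 of the 6 on the raised list were higher. miR-155 is the 1 member whose fall there passed limma's adjusted test. All 7 fibroblast or mesenchymal markers were tested, with 5 higher with MDI, 0 called and a median of 0.27. Of these markers, miR-145 was detected on 8 arrays and lay at the signal floor on 2, and the others were detected on all 12. miR-21 is also on the AP-1, raised-in-fibrosis and fibroblast lists, whose medians without it were -0.17, -0.07 and 0.15. Of the markers of other cell types (epithelium, muscle, blood, neural cells, endothelium and liver), miR-205 was detected on 3 arrays and miR-128 on 7, and the others on none.

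The miRNAs whose level ran most like miR-21 across the 12 arrays were ranked by Pearson's r among 107 others detected on all arrays. They were miR-674* (r = 0.904), miR-350 (0.901), miR-28 (0.899), miR-29a (0.894) and miR-24 (0.889), and r within groups was 0.820 to 0.875 for these. miR-674* lay close to the signal floor of -4.97, with group means from -4.52 to -3.79. It was at the floor on 1 array, lithium 2, where miR-21 was also lowest. The median r over all 107 was 0.474, with 80 above 0, and all arrays share their scaling and probe set. miR-29a, which is known to repress collagen genes, had mean log2 levels of 2.37 in lithium plus MDI cells, 2.09 in MDI cells, 1.70 in lithium cells and 1.98 in preadipocytes. miR-24 had 2.26 in lithium plus MDI cells, 1.91 in MDI cells, 1.23 in lithium cells and 1.82 in preadipocytes. The miRNAs that ran most against miR-21 were miR-193b (r = -0.904), miR-146b (-0.827) and miR-99a (-0.804). Without scaling their r was -0.193, -0.139 and 0.0399, and the 5 most alike had r of 0.890 to 0.908. The median r over all 107 was 0.530 without scaling.

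**Figure D5:**
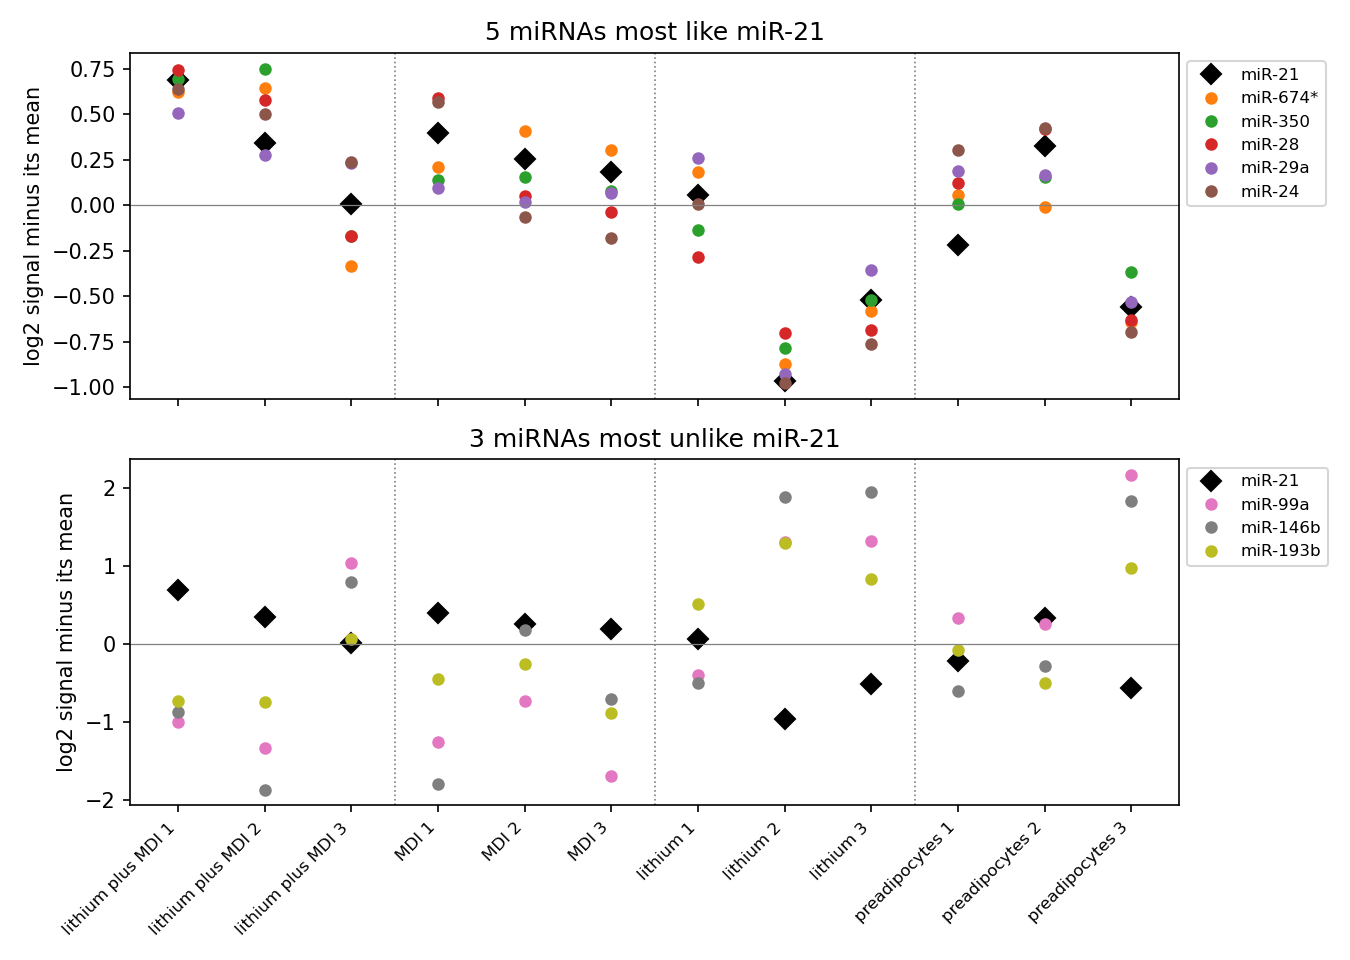
Log2 signal minus each miRNA's own mean over the arrays (y axis) on the 12 arrays (x axis), for miR-21 with the 5 miRNAs most like it (top) and the 3 most unlike it (bottom). Points are single arrays. The lowest values of miR-21 and its nearest miRNAs lie in lithium 2, where the most unlike miRNAs are high.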

How the data were processed

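Cy3-labelled total RNA of 12 samples was hybridised to 1-colour Agilent mouse miRNA arrays. The deposited scanner files give spot intensity, background and flags (Feature Extraction 10.5.1.1 per the file headers, 9.5.3 per the submitters' processing notes). The authors also deposited a table of log2 values, whose scaling is not given in the sources used here. It holds 3 distinct values for miR-21, 12.71 to 13.49, and served as an alternative only. Each value goes with 1 place among all features of an array: 13.49 with place 2, 13.13 with place 3 and 12.71 with place 4. Differences there therefore follow changes of place, and miR-21 is never first in that table. Background-subtracted signals of unflagged spots were averaged per probe, divided by each array's 75th percentile (taken over 181 mouse probes detected on every array), floored (log2 -4.97, 9.02% of tested values) and put on the log2 scale. A miRNA took its brightest probe. miRNAs detected on all 3 arrays of a group (157) entered limma 3.58.1 (R 4.3.3) with 4 group means and Benjamini-Hochberg adjustment. The fit was checked on simulated data with independent noise and planted differences larger than those of miR-21. Smaller differences, and scatter shared between miRNAs, were not checked. Total gene signals gave the shares, which were compared by exact permutation. miR-21, the 4 next brightest miRNAs, the 5 most and 3 least correlated with it, and list members were named. Members and lists were chosen with earlier results of these data known. Figures were drawn with matplotlib 3.10.9. Replicate numbers were not used to pair the arrays. Of 18 same-number pairs, 9 had r above 0.1 (median 0.0611, from -0.482 to 0.473). Pairs of unlike number were not examined, so whether the numbers mark pairs was not settled.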

Additional observations from a re-analysis of the deposited data

How the results depend on the processing

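No call on miR-21 changed with slide as a block, normexp background correction, median scaling, the median of all spots, no filter on dim probes or total gene signal. The replicate block gave 0.63 for the average MDI difference (limma adjusted p = 0.0758) and 0.82 for lithium plus MDI minus lithium (limma adjusted p = 0.0849). It changed no call on miR-21. With it 16 of 157 miRNAs were called for lithium plus MDI minus lithium and 4 for the interaction, against 0 as reported for each. For lithium minus preadipocytes 9 were called, against 10, and the remaining counts were the same. Scaling to the 75th percentile of all mouse probes gave MDI minus preadipocytes -0.38, lithium minus preadipocytes -1.22 (limma adjusted p = 0.0107), lithium plus MDI minus MDI -0.17 and lithium plus MDI minus preadipocytes -0.55. No scaling gave -0.47, -1.02 (limma adjusted p = 0.00891), and -0.23 for MDI, lithium and lithium plus MDI, each minus preadipocytes, and an interaction of 1.26 (limma adjusted p = 0.0159). Lithium plus MDI minus MDI was -0.22 with median scaling and -0.065 by total gene signal. The average lithium difference was -0.70 with the 75th percentile of all mouse probes (limma adjusted p = 0.0706). Without scaling it was -0.39 (limma adjusted p = 0.232). It was above 0 in 2 of 25 alternatives. Scaling to hur_ control probes, chosen after seeing the data and with a role not given in the sources used here, gave lithium minus preadipocytes 0.29, an interaction of -0.031 and an average lithium difference of 0.28. The authors' deposited table, in which miR-21 moves only between 3 values tied to its place, gave 0.14, -0.14 and 0.069 for those 3 results. The dimmer probe gave 0.90 for the average MDI difference (limma adjusted p = 0.0491). Without the 3 arrays that stood apart, lithium minus preadipocytes was -0.80 (limma adjusted p = 0.0266), lithium plus MDI minus lithium 1.26 (limma adjusted p = 0.00327), the interaction 1.03 (limma adjusted p = 0.0355) and the average MDI difference 0.74 (limma adjusted p = 0.00795). Leaving out 1 array at a time gave 0.58 to 1.09 for lithium plus MDI minus lithium, -0.10 to 0.23 for lithium plus MDI minus MDI, and 0.50 to 0.76 for the average MDI difference. It gave 0.22 to 0.67 for MDI minus preadipocytes, -0.59 to -0.082 for lithium minus preadipocytes, 0.29 to 0.74 for lithium plus MDI minus preadipocytes, 0.15 to 0.66 for the interaction and -0.26 to -0.0078 for the average lithium difference, with no call changed in these 5. For the share it gave -2.54 to 0.729 points for lithium minus preadipocytes, above 0 without preadipocytes 2 or lithium 2, and 4.67 to 6.26 points for the average MDI difference. Over all settings the number of miRNAs called ran from 0 to 66 for the average MDI difference (5 as reported), 0 to 62 for MDI minus preadipocytes (5), 0 to 83 for lithium minus preadipocytes (10) and 0 to 88 for lithium plus MDI minus lithium (0). For the interaction it ran from 0 to 69 (0 as reported). The cause was not tested. Quantile normalization gave miR-21 1 value (13.33) on all arrays, since it is the brightest, and so no test. With 3 arrays a group, their number limits the precision.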
